A study of Strongylocentrotus purpuratus with 2 samples.

Results

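Isolated reproducible open regions are stretches of accessible chromatin that stood alone in the genome of the purple sea urchin embryo. The assay was ATAC-seq, in which the transposase Tn5 inserts sequencing adapters where DNA is accessible, on whole wild-type embryos of Strongylocentrotus purpuratus at 48 hours post fertilization. The culture temperature was 15 °C, in ASW, and the labels give 2 replicates of 1 group. The genotype is wild type, no treatment is named, and whole embryos mix all cell types, so a region open in few cells and a region weakly open in many cannot be told apart.

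To find the isolated regions, the peak intervals of both replicates were merged where they overlapped by at least 1 bp, which gave 40611 regions outside the left-out sequence NC_001453.1. Of these, 18746 held at least 1 peak of each replicate and are called reproducible regions below. On the 21 longest sequences there were 17939 reproducible regions. A region was isolated when the nearest other reproducible region on the same sequence lay more than 50000 bp away, edge to edge, on both sides. This left 1411 isolated regions, or 7.87% of the reproducible regions on those sequences (95% Wilson interval 7.48 to 8.27%). The first and last region of each sequence, 42 in all, could not be judged, so the other 16486 reproducible regions served for comparison. The isolated regions were chosen by the measured positions of called peaks in both replicates, so their number and distances are a description. With 1 group no test between conditions was possible, and regions of a library are not replicates, so no p-value was computed.

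In animal embryos, open chromatin marks promoters, where transcription starts, and enhancers, short stretches bound by transcription factors that set when and where a gene is active. The sea urchin embryo is a classic model for such cis-regulatory control. At this age the embryo is a gastrula, with a gut folding inward and skeleton-forming cells laying down the larval spicules. Enhancers can lie in introns or far from the gene they control. Gene annotation placed on these sequences and the genome sequence were not used here, so nothing is said of which genes the regions lie near or of their bases.

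Each peak carries the authors' fold of pileup over background and a −log10 p. The pileup, meaning the number of extended reads stacked at the summit, and the local background were solved from these values for every peak (29456 in replicate 1, 32554 in replicate 2). Replicate 2 was 1.21 times as deep as replicate 1, given equal calling settings, since its library-wide background, in extended reads per base, was 0.813 against 0.671. Where a region held several peaks of a replicate, its best-ranked peak by −log10 p stands for it.

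The isolated regions were set in wide stretches with no reproducible region. The median gap to the nearest reproducible region was 78678 bp, with an interquartile range of 60178 to 116286 bp, against a median of 5549 bp for the other reproducible regions. On the farther side the median gap was 165973 bp. A gap of over 100 kb on both sides was found for 469 isolated regions (33.2%), over 200 kb for 128 and over 500 kb for 3. The isolated regions covered 0.468 Mb, but the gaps beside them made up 375 Mb, or 45.4% of the 826 Mb spanned by the 21 sequences. The distances formed 1 continuous distribution, and the limit of 50000 bp fell on its falling side.

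**Figure D1:**
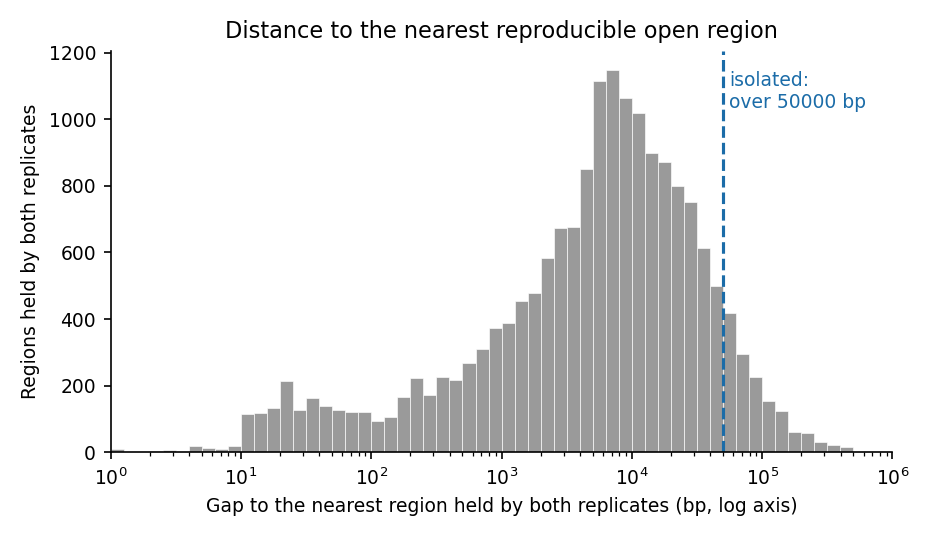
Histogram of the gap from each of 17897 reproducible regions to its nearest reproducible neighbour (x axis, bp on a log scale; y axis, number of regions). The dashed line marks 50000 bp, and the 1411 regions to its right are the isolated ones, with no separate mode beyond the line.

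Regions on both sides of the limit had overlapping values. The 3 isolated regions just inside it had nearest gaps of 50115 to 50134 bp, pileups of 8 to 32 reads in replicate 1 and 12 to 45 in replicate 2, and widths of 214 to 451 bp. The 3 reproducible regions just outside it had nearest gaps of 49965 to 49981 bp, pileups of 7 to 11 and 12 to 19 reads, and widths of 299 to 433 bp.

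The order of isolated regions along the sequences follows in part from the rule, since the next region on either side of one already has a gap of more than 50000 bp on the facing side. Of the 1411, 866 (61.4%) had another isolated region as the next reproducible region on at least 1 side, and 545 stood between regions that were not isolated. There were 23 runs of 5 or more isolated regions in a row, with 136 members. The longest held 9 regions on NW_022145597.1, and 2 runs of 8 lay on NW_022145611.1, which had the most reproducible regions per Mb of all 21 sequences.

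At the limit of 50000 bp, the density of isolated regions was more even than that of reproducible regions. This follows in part from the rule, since regions on denser sequences have closer neighbours and a smaller share of them can be isolated. Over the 21 sequences the isolated regions averaged 1.71 per Mb, from 1.37 per Mb on NW_022145611.1 to 2.44 per Mb on NW_022145597.1, a ratio of 1.78. The density of all reproducible regions differed 3.67 times between sequences. NW_022145606.1 had 9.44 reproducible regions per Mb and 1.66 isolated ones, whereas NW_022145612.1 had 29.7 reproducible regions per Mb and 1.63 isolated ones. The share of reproducible regions that were isolated therefore ran from 3.96% on NW_022145611.1 (95% Wilson interval 3.10 to 5.05%) to 17.6% on NW_022145606.1 (14.5 to 21.2%). After NW_022145597.1, the next highest densities were 2.29 per Mb on NW_022145601.1 and 2.20 per Mb on NW_022145602.1. Sequence lengths were taken as the last peak end, which is a lower bound, so all these densities are upper bounds. The evenness depended on the limit. At a limit of 100000 bp the highest density was 6.02 times the lowest, on 469 regions. With regions of either replicate counted as neighbours it was 4.76 times the lowest, on 264 regions. Both ratios were above the 3.67 of all reproducible regions. Within sequences, isolated regions were found along the whole length, at 5.95 to 9.52% of the reproducible regions in each of 10 equal parts.

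**Figure D2:**
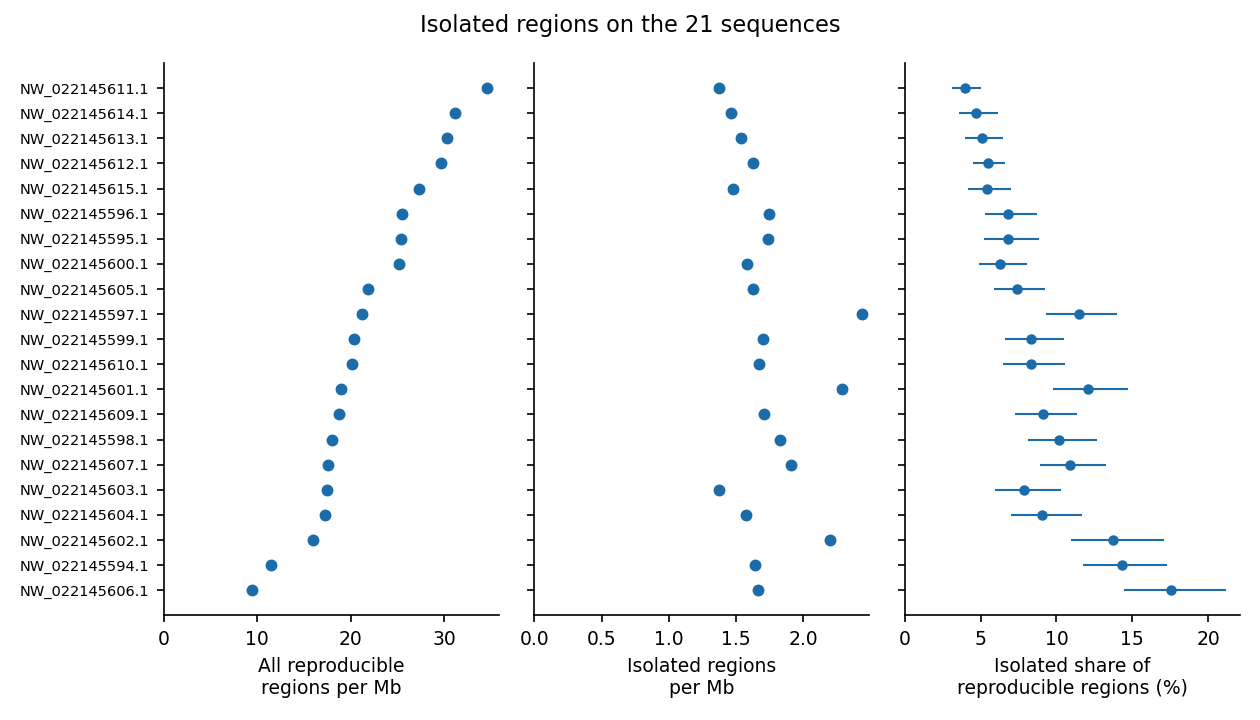
Dots give, for each of the 21 longest sequences (rows, ordered by density of reproducible regions), all reproducible regions per Mb, isolated regions per Mb and the isolated share of reproducible regions in percent, with 95% Wilson intervals. The first ranges from 9.44 to 34.65 per Mb and the second only from 1.37 to 2.44 per Mb.

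Isolation was seldom complete. Regions called in 1 replicate only lay within 50 kb of 1148 isolated regions, or 81.4% (95% Wilson interval 79.2 to 83.3%). This was less often than among the other reproducible regions, of which 95.3% had one within 50 kb. Regions of replicate 1 only were found that close to 53.7% of the isolated regions and regions of replicate 2 only to 66.3%. The other 263 isolated regions (18.6%; 16.7 to 20.8%) had no other called region of either replicate within 50 kb. Calls in 1 replicate only were slightly less dense within 50 kb of an isolated region, at 22.6 per Mb, than on the rest of the 21 sequences, at 25.6 per Mb. At 10000 to 50000 bp they were sparser around isolated regions, at 20.3 per Mb, than around the other reproducible regions, at 34.7 per Mb. In the first 1000 bp the order was the reverse, at 110 against 85.3 per Mb. The rule bars further reproducible regions within 50 kb of an isolated one. The stretches around the others can hold such regions, with the single-replicate calls next to them. The part of this in the difference at 10000 to 50000 bp was not tested.

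Next to the isolated regions such calls were dense. In the first 1000 bp from their edges there were 110 single-replicate regions per Mb, against 20.1 per Mb at 1 to 5 kb, 25.2 per Mb at 5 to 10 kb and 20.3 per Mb at 10 to 50 kb. A single-replicate region lay within 1000 bp of 258 isolated regions (18.3%) and within 100 bp of 154 (10.9%). Of the other reproducible regions, 15.9% had one within 1000 bp and 6.80% within 100 bp. Around them the density of single-replicate regions was 85.3 per Mb in the first 1000 bp and 34.7 per Mb at 10 to 50 kb. The peaks close to isolated regions were small. Those of replicate 1 had a median pileup of 10 reads and a median width of 110 bp, and those of replicate 2 had 10 reads and 114 bp.

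Signal at the isolated regions was lower than at the other reproducible regions in both replicates. The summit pileup had a median of 13 reads in replicate 1 (interquartile range 10 to 20.5) and 15 reads in replicate 2 (11 to 23), with a mean of 14.0 ± 1.41 (SD, n = 2). At the other reproducible regions it was 18 reads (13 to 27) and 21 reads (14 to 31), a mean of 19.5 ± 2.12 (SD, n = 2). The gap of 5 to 6 reads within each replicate was larger than the spread between the replicates, while the 2 distributions overlapped widely. The strongest isolated summit had 83 reads in replicate 1 and 101 in replicate 2.

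The local background differed more than the pileup. At isolated regions its median in extended reads per base was 0.940 for replicate 1 and 1.13 for replicate 2, with a mean of 1.035 ± 0.134 (SD, n = 2). At the other reproducible regions it was 1.77 and 2.14, a mean of 1.955 ± 0.262 (SD, n = 2). Relative to the library-wide level, the background was thus 1.40 and 1.39 times at isolated regions and 2.64 and 2.63 times at the others. It was at the library-wide level, the lowest it can take, at 28.7% of isolated regions in replicate 1 and 30.5% in replicate 2, compared with 5.39% and 6.14% of the others. The isolated median was below that of the other regions in both replicates on 21 of 21 sequences. The background was also higher where the pileup was. At isolated regions of replicate 1 it was 0.671 under 10 reads of mean pileup and 1.86 at 30 reads or more. In each class of mean pileup it was lower at isolated regions. At 10 to under 15 reads it was 0.810 against 1.25 in replicate 1 and 1 against 1.5 in replicate 2. The caller MACS2 takes the local background from reads around the peak, so reads of neighbouring peaks inside its window add to it. That window is not given in the sources used here, so the part of neighbouring peaks in the difference was not tested.

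From 1 kb on, both values were lower or equal in each class of greater distance to the nearest neighbour. Regions with a neighbour at 1 to 5 kb had a median pileup of 20 reads in replicate 1 and 23 in replicate 2, and those with one within 1 kb had 19 and 22 reads. At 20 to 50 kb these medians were 16 and 18 reads, at 50 to 100 kb 13 and 15.5 reads, and beyond 100 kb 13 and 14 reads. The background went from 2.38 and 2.93 at 1 to 5 kb to 1.40 and 1.68 at 10 to 20 kb, and it was lower again in each further class. It was 1.26 and 1.49 at 20 to 50 kb, 1.05 and 1.24 at 50 to 100 kb, and 0.770 and 0.920 beyond 100 kb. In the 263 regions with no other call of either replicate within 50 kb it was 0.690 and 0.840, close to the lowest level, whereas their median pileup was 13 and 15 reads, as in all isolated regions.

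**Figure D3:**
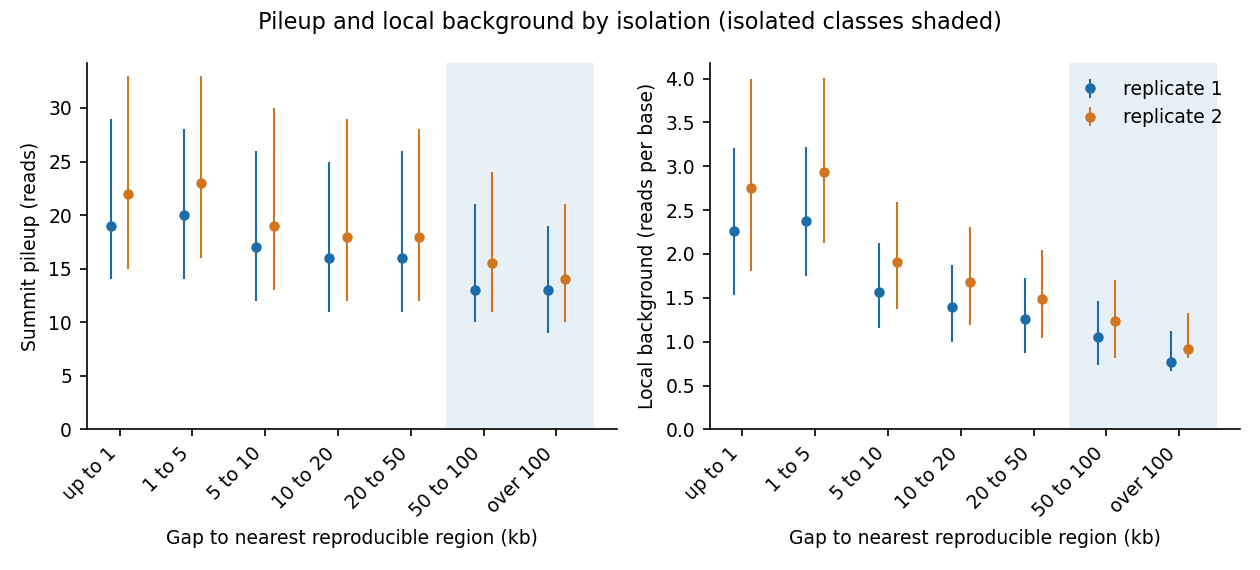
Median summit pileup (left, reads) and median local background (right, extended reads per base) of reproducible regions by gap to the nearest reproducible region (x axis, kb), with interquartile ranges as bars, for each replicate. Isolated classes are shaded, and both quantities are lowest there, with the background reaching 0.770 and 0.920 beyond 100 kb.

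The authors' fold was higher at isolated regions than at the others as 1 pool, but not than at regions with a neighbour at 10 to 50 kb. Its median was 7.18 in both replicates, a mean of 7.18 ± 0.00115 (SD, n = 2), against 6.64 in replicate 1 and 6.62 in replicate 2 at the other regions. By distance to the nearest neighbour, the medians were 6.22 and 6.14 within 1 kb, 5.98 and 6 at 1 to 5 kb, 7.20 and 7.22 at 10 to 20 kb, and 7.56 and 7.63 at 20 to 50 kb. The order was the opposite for −log10 p, which also depends on the number of reads. Ranked by −log10 p, the peaks of isolated regions had a median position at 36.1% of the list of replicate 1 and 33.2% of that of replicate 2, where 0% is the strongest. Those of the other regions stood at 33.1% and 29.97%. Ranked by fold, the medians were 29.8% and 26.6% for isolated regions and 34.9% and 32.3% for the others. Isolated regions thus came out as slightly weaker or as slightly stronger, depending on the measure.

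Isolated regions were spread over all ranks, much as the others were. Both peaks ranked among the strongest 10% of their lists in 152 isolated regions (10.8%; 95% Wilson interval 9.26 to 12.5%) and in 12.5% of the others (12.02 to 13.03%). Both ranked among the strongest 100 in 2 isolated regions (0.142%; 0.0389 to 0.515%) and in 53 others (0.321%; 0.246 to 0.420%). At the lower end, both peaks stood in the weaker 50% of their lists in 264 isolated regions (18.7%; 16.8 to 20.8%) and in 16.8% of the others (16.3 to 17.4%). The intervals of isolated and other regions overlapped in these classes.

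Isolated regions were narrower than the others as 1 pool, but not at equal pileup. The median width of the merged region was 300 bp (interquartile range 253 to 389.5) for isolated regions and 322 bp (264 to 419) for the others. Regions with a neighbour within 1 kb were as narrow as the isolated ones, with a median of 301.5 bp, and the widest class was that at 5 to 10 kb, with 341 bp. Median peak widths were 256 bp (replicate 1) and 270 bp (replicate 2), against 276 and 292 bp at the others. Sorted by the mean pileup of both replicates, however, isolated regions were at least as wide in every class. Their median widths were 223, 275, 315, 375 and 453 bp at under 10, 10 to under 15, 15 to under 20, 20 to under 30 and at least 30 reads, where the others had 221, 263, 302, 350 and 443 bp. The classes were filled unequally, with 53.08% of the isolated regions and 30.74% of the others under 15 reads. A peak of at most 120 bp in exactly 1 list was found in 309 isolated regions (21.9%; 95% Wilson interval 19.8 to 24.1%) and in 15.1% of the others (14.6 to 15.7%).

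Most isolated regions were simple. Exactly 1 peak of each replicate made up 1200 of them (85.0%; 95% Wilson interval 83.1 to 86.8%), slightly less than among the others (87.7%; 87.2 to 88.2%). The remaining 211 held several peaks in at least 1 replicate and were wider, with a median of 356 bp against 295 bp. Replicate 1 had more peaks than replicate 2 in 121 of them and fewer in 80. The most divided region, named after its values were seen, lay on NW_022145594.1 at bases 34903529 to 34904057, with 4 peaks in replicate 1 and 1 peak of 521 bp in replicate 2. Its best peaks had 19 reads in replicate 1 and 16 reads in replicate 2, with summits 2 bp apart.

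Overlap of both replicates was required of every reproducible region, so close summits and shared bases follow in part from that choice. At isolated regions the summits lay a median of 41 bp apart (interquartile range 13 to 94 bp), and 37 bp apart at the other regions (12 to 82 bp). Summits no more than 100 bp apart were found in 77.2% of isolated regions (95% Wilson interval 74.9 to 79.3%) and 80.8% of the others (80.2 to 81.4%). A median of 78.0% of the bases covered by either replicate were covered by both, against 79.9% at the others. In the classes of mean pileup from 10 to under 30 reads the summit distances were close. They were 43, 44 and 37 bp for isolated regions and 43, 43 and 36 bp for the others. Under 10 reads they were 48 bp for isolated regions and 41 bp for the others. At 30 reads or more the order was the reverse, at 21 and 24 bp.

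Peak heights of the replicates were farther apart at isolated regions than at the others as 1 pool, but not in every class of pileup. A call in both lists was required of every region, and the background was lower at isolated regions. The part of this in the difference was not tested. After division by the ratio of library-wide backgrounds, the pileups of the 2 replicates were within 1.5 times of each other in 1088 isolated regions (77.1%; 95% Wilson interval 74.8 to 79.2%) and in 83.5% of the others (82.9 to 84.1%). Among regions of 10 to under 15 reads these shares were 71.2% (67.1 to 74.95%) and 79.9% (78.7 to 81.2%). The intervals were also apart at 20 to under 30 reads, with 76.8% (71.0 to 81.8%) and 83.8% (82.6 to 84.9%). The shares were 73.5% and 78.4% at 15 to under 20 reads, 82.1% and 80.3% under 10 reads, and 93.6% and 92.6% at 30 reads or more, where the intervals overlapped. Across the 1411 isolated regions the pileups of the replicates had a Pearson r of 0.784 on the log2 scale and a Spearman rho of 0.725, against 0.854 and 0.840 across the others. These correlations were not computed at equal pileup. All points come from the same 2 libraries, so these values describe them only.

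The pileups differed by over 2 times after the depth correction in 66 isolated regions (4.68%), with replicate 1 higher in 48 and replicate 2 higher in 18. At the other regions this was so in 372 (2.26%), with the same lean, replicate 1 being higher in 282 and replicate 2 in 90. After the correction, the median log2 ratio of replicate 2 to replicate 1 was -0.116 at isolated regions and -0.107 at the others. Both sets were thus shifted towards replicate 1, and the part of this shift in the lean was not tested. The largest difference, named after its values were seen, was on NW_022145603.1 at bases 3705628 to 3706056. This region had 8 reads in replicate 1 and 73 reads in replicate 2, and its folds were 5.39 and 22.7. In replicate 2 it ranked 26 of 32554 peaks, and in replicate 1 it ranked 19881 of 29456. The summits were 62 bp apart, and the nearest reproducible regions were 301342 bp before it and 213923 bp after it. In 3 further isolated regions, on NW_022145601.1, NW_022145607.1 and NW_022145609.1, replicate 2 likewise placed the peak in its strongest 10% and replicate 1 in its weaker 50%, with 7 to 9 reads in replicate 1 and 27 to 35 in replicate 2. No isolated region showed the opposite order. These 4 regions were 0.283% of the isolated ones (95% Wilson interval 0.110 to 0.727%), and 17 of the others (0.103%; 0.0644 to 0.165%) were as far apart in rank, in either direction.

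**Figure D4:**
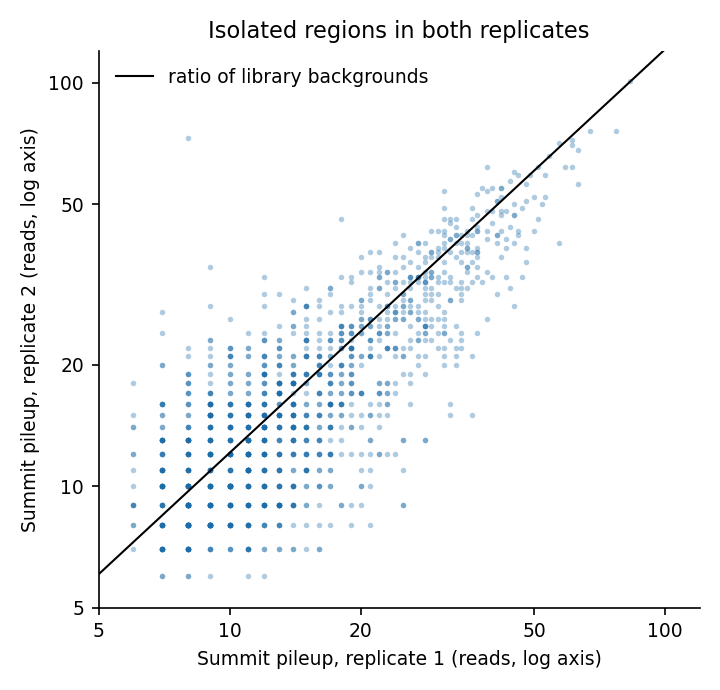
Summit pileup in reads of the 1411 isolated regions in replicate 1 (x, log axis) and replicate 2 (y, log axis), 1 point per region. The line is the ratio of library-wide backgrounds, 1.21; the point far above it has 8 reads in replicate 1 and 73 in replicate 2.

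The 6 isolated regions with the best mean rank were wide and came from 3 sequences. On NW_022145614.1, the first of them covered bases 25263717 to 25264488. It had 83 reads over a background of 3.27 in replicate 1 and 101 reads over 4.66 in replicate 2, which put it at rank 11 and rank 5. Its summits were at bases 25264244 and 25264265, and its nearest reproducible regions were 125053 bp before it and 110195 bp after it. The neighbour before it, at bases 25137848 to 25138663, was itself the fifth of these regions, with 67 and 76 reads, so a pair of very strong regions faced each other across that gap.

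The second region lay on NW_022145611.1 at bases 14424791 to 14425225, with 63 and 68 reads. It had the highest fold of the 6, at 23.5 in replicate 1 and 23.2 in replicate 2, over a background of 1.72 and 1.97. The third and the sixth were on the same sequence, at bases 5012609 to 5013371 with 77 and 76 reads and at bases 35513476 to 35513982 with 61 and 70 reads. The fourth, on NW_022145598.1 at bases 35963199 to 35963850, had 61 and 62 reads and summits 2 bp apart. Among the 6 it alone had no single-replicate region within 50 kb, the nearest being 51601 bp away. Over the 6 regions, widths were 435 to 816 bp and summits 2 to 51 bp apart.

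The 4 most isolated regions had pileups of 7 to 19 reads in replicate 1 and 12 to 24 in replicate 2, around the medians of 13 and 15 reads of all isolated regions. Across the 1411, the nearest gap and the pileup had a Spearman rho of -0.0888. The most isolated lay on NW_022145599.1 at bases 34737356 to 34737663, with gaps of 1292902 bp before it and 776371 bp after it. It had 7 reads in replicate 1, where the peak was 100 bp wide, and 24 reads in replicate 2, where it was 308 bp wide. A single-replicate region lay 60 bp from its edge. The next was on NW_022145594.1 at bases 36183581 to 36183863, with 19 and 12 reads. The gap of 1279523 bp before it ended at the region with 4 peaks in replicate 1 described above, so isolated regions bounded this stretch on both sides.

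The third, on NW_022145606.1 at bases 40392546 to 40392803, had 7 and 14 reads and its summit at base 40392626 in both replicates. The fourth, on NW_022145594.1 at bases 21348314 to 21348865, held 2 peaks of each replicate, with 10 and 14 reads at the best ones. Their summits were 351 bp apart, so the replicates ranked different peaks of this region first. The local background was at the library-wide level in both replicates in all of the 4 except the first, where it was 1.19 in replicate 2. The longest gap on 1 side of an isolated region was 1930042 bp, on NW_022145602.1. It ran between isolated regions at bases 23870181 to 23870303, with 9 and 17 reads, and at bases 25800346 to 25800590, with 10 and 11 reads.

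Whether standing alone went with reproducibility could be asked only without the requirement that both replicates hold the region. Each list was therefore taken by itself, and a peak was called isolated when no other peak of its own list lay within 50 kb on either side. There were 1062 such peaks in replicate 1 and 996 in replicate 2. They overlapped a peak of the other replicate in 55.6% of cases in replicate 1 (95% Wilson interval 52.6 to 58.6%) and 45.4% in replicate 2 (42.3 to 48.5%), with a mean of 50.5% ± 7.26 (SD, n = 2). The other peaks did so in 69.6% (69.1 to 70.2%) and 61.6% (61.1 to 62.2%), a mean of 65.6% ± 5.67 (SD, n = 2). Isolated peaks were thus found again less often in both lists, by more than the spread between them.

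The deficit was also present among peaks of equal rank by −log10 p. Isolated peaks had the lower share in 10 of 10 deciles of both lists, by a median of 12.4 percentage points in replicate 1 and 10.5 in replicate 2. The intervals were apart in 10 deciles of replicate 1 and 7 of replicate 2. These intervals cover counting error of peaks only. The 2 lists are not independent here, since an overlapping pair counts as shared in both. With summits within 100 bp required, isolated peaks had the lower share in 9 deciles of replicate 1 and 10 of replicate 2. By overlap, the strongest decile differed little, with 97.6% for isolated peaks and 99.7% for the others in replicate 1, and 97.3% and 99.8% in replicate 2. In the fifth decile the shares were 59.4% for isolated peaks and 77.6% for the others in replicate 1, and 64.8% and 66.9% in replicate 2. In the weakest decile they were 14.3% and 27.9%, and 9.62% and 20.2%. The isolated peaks had the lower median pileup in 10 of 10 deciles of both lists. In the fourth decile, for example, it was 13 reads against 16 in replicate 1 and 13 against 17 in replicate 2.

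At equal pileup no general deficit was seen. Of 6 classes of pileup, isolated peaks had the lower share in 3 and the higher in 3, in both replicates. The classes were the same in both replicates. The share was lower at 5 to 7, 8 to 9 and 25 or more reads, and higher at 10 to 12, 13 to 16 and 17 to 24 reads. The class of 25 or more reads has no upper limit. At 10 to 12 reads, 58.4% of isolated and 56.5% of other peaks were shared in replicate 1, and 48.4% and 42.4% in replicate 2. At 17 to 24 reads the shares were 95.5% and 92.3%, and 88.1% and 81.1%. At 8 to 9 reads they were 35.9% and 37.5%, and 20.9% and 25.5%. The intervals were apart in 1 of the 12 comparisons, at 25 reads or more in replicate 1, with 96.9% against 99.5%. The background in each class was lower at the isolated peaks, for example 0.760 against 1.31 at 10 to 12 reads in replicate 1.

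**Figure D5:**
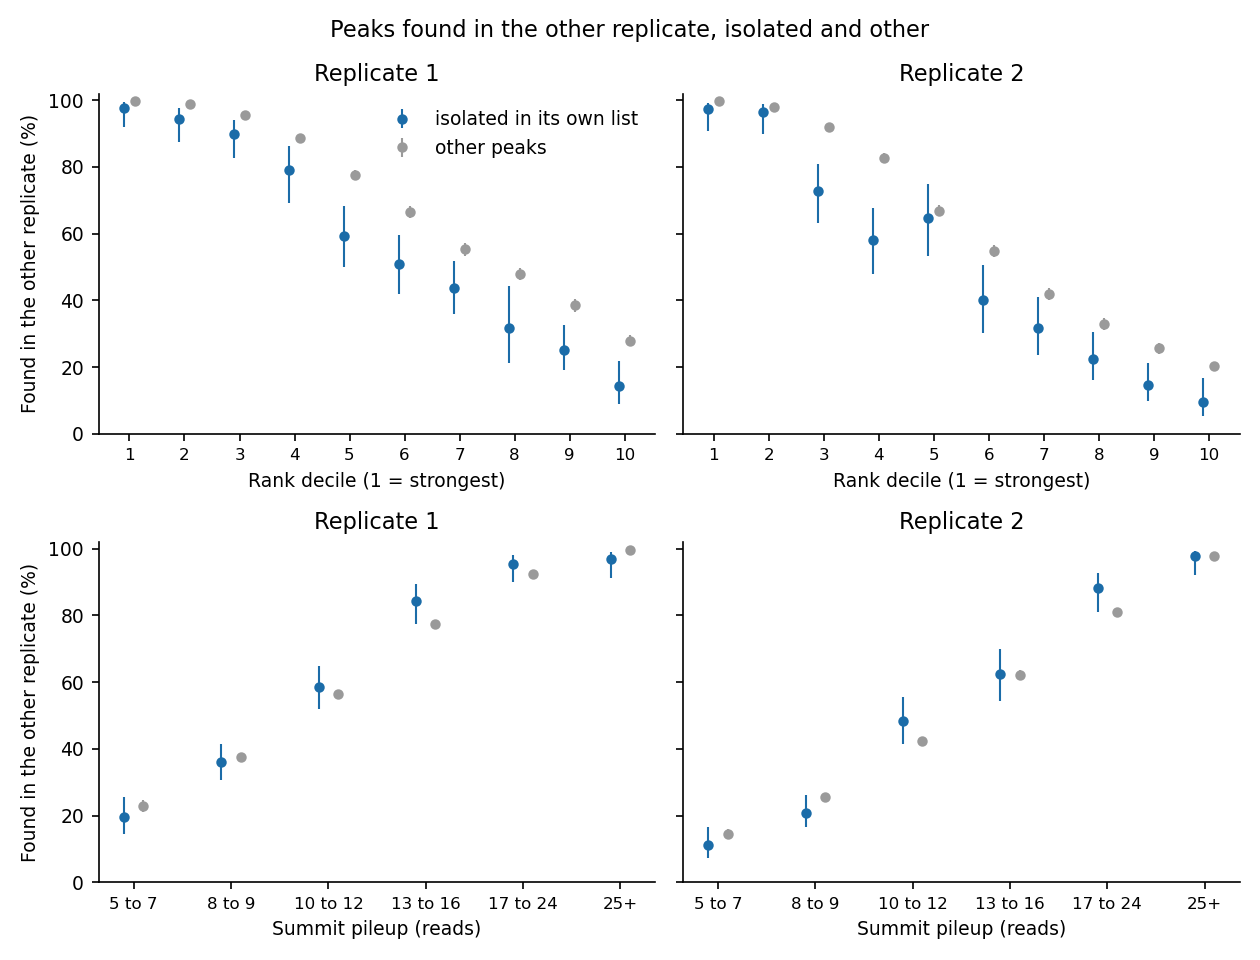
Share of peaks in percent that overlapped a peak of the other replicate, with 95% Wilson intervals, for peaks with no other peak of their own list within 50 kb and for the other peaks, by decile of −log10 p (top, 1 the strongest) and by summit pileup in reads (bottom). Isolated peaks lie lower in 10 of 10 deciles of both lists, but in only 3 of 6 pileup classes.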

How the data were processed

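The authors deposited a narrowPeak file for each replicate, without a header; the peak names carry the sample's own name, so peaks were called per sample. The submitters' processing notes name Bowtie2, SAMtools and MACS2. Versions, settings and genome build: not given in the sources used here. Positions are 1-based and refer to sequences by their deposited names. By the file layout, a deposited peak carries the authors' fold (a ratio of pileup to background), −log10 p, −log10 q, a summit and a display score. The deposited score equalled 10 × −log10 q, cut to a whole number, in 100% of peaks. These are the authors' values for each peak and were used only within their list.

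Pileup and background were solved from fold, taken as (pileup + 1)/(background + 1), and the Poisson −log10 p, with a tolerance of 5e-05 beside the rounding of the fold. More than 1 whole pileup solved 17 peaks of replicate 1 and 20 of replicate 2, and the one not under the library-wide background was taken. That level, the most frequent background, gives relative depth only. Backgrounds above it were multiples of 0.01 in 100% of peaks, with a tolerance of 0.0005. NC_001453.1, with 5 and 8 peaks, was left out.

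Regions described one by one are the 6 with the best mean rank, the 4 with the largest nearest gap and the 3 on each side of the limit; others are marked as named after their values were seen. Members, lists and rules were chosen with earlier results of these data known, and pileup classes and the isolation of peaks in their own list were added later, after seeing the data. Wilson intervals cover counting error only. The labels name replicates but not separate cultures, so the spread between them may be technical. In simulated lists with 1720 isolated regions, 1720 were recovered and 0 called wrongly, and 100% of 4823 simulated pileups were recovered. The simulated peaks were made with the same fold and Poisson formulas that were solved. Their recovery checks the calculation, not whether the deposited peaks follow these formulas. Python 3.11.15, numpy 2.4.6, pandas 2.3.3, scipy 1.17.1 and matplotlib 3.10.9 were used. No placed gene annotation or genome sequence was used, so the planned results on promoters, gene lists, GC content and motifs were not computed.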

Additional observations from a re-analysis of the deposited data

How the results depend on the processing

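A value was taken to move when it left its 95% interval (shares, medians of width and summit distance) or changed by more than the SD between replicates, and the number of regions when it changed by over 1.5 times. For the fold that SD was only 0.00115, so even small changes of the fold counted as moves. Alternatives for the background and for peaks isolated in their own list were chosen after seeing the data. With a limit of 25000 bp there were 3287 isolated regions (18.3% of reproducible ones), with a median width of 314 bp, rank position of 31.8%, fold of 7.45 and background of 1.215. With 100000 bp there were 469 (2.61%), with a width of 289 bp, fold of 7.28, background of 0.845 and a highest density 6.02 times the lowest. Counting regions of either replicate as neighbours left 264 (1.47%), with a rank position of 32.3%, fold of 7.75 and densities 4.76 times apart; here a region first or last among the reproducible ones could be judged. Regions with no other call within 50 kb had a background of 0.765. A reciprocal overlap of at least 50% gave a share of 10.6%, width of 313 bp, rank position of 27.8%, fold of 7.83, summits 34 bp apart and 91.2% with 1 peak of each replicate. The better-ranked 50% of each list gave 14.9%, 363 bp, 18.6%, 9.19, 32 bp and 92.5%. A −log10 p of at least 10 gave 16.8%, 370 bp, 16.8%, 9.57, 30 bp and 94.0%, with a single-replicate region within 50 kb of 52.6%; both settings drop weak peaks by construction. Ranking by fold gave a position of 28.2%.

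Leaving out a replicate means calling isolated peaks in the other list alone. That gave 996 to 1062 regions, 3.21 to 3.77% of all peaks, widths of 205 to 217 bp, rank positions of 55.6 to 59.9%, folds of 5.52 to 5.98 and densities 2.37 to 2.59 times apart. For the same members, the background was 0.940 to 1.13 and a single-replicate region lay within 50 kb of 53.7 to 66.3%. The mean share of peaks isolated in their own list that were found again, 50.5%, was 45.4 to 55.6% in single lists, 40.3% with summits within 100 bp (52.2% for other peaks) and 90.6% at a pileup of at least 15 reads (90.2% for other peaks). It was 53.7% and 46.9% with limits of 25000 and 100000 bp, where other peaks gave 66.4% and 65.3%. No paired analysis was possible because the samples form a single group. Alternatives for promoters and GC content were not run. A median of 13 to 15 reads lies behind an isolated summit, and the effect of depth on weak peaks was not tested.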

Other observations

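Regions with no other call of either replicate within 50 kb were counted whether or not both replicates held them, and there were 809 on the 21 sequences. Of these, 264 (32.6%; 95% Wilson interval 29.5 to 35.9%) were reproducible, 211 belonged to replicate 1 alone and 334 to replicate 2 alone. Among all merged regions on these sequences, 46.3% were held by both. The regions of 1 replicate were small, with a median pileup of 8 reads in each replicate and median widths of 115 bp (replicate 1) and 136.5 bp (replicate 2). The reproducible ones had 13 reads and 293 bp. Among the regions of 1 replicate alone, the highest pileup was 26 reads in replicate 1 and 37 in replicate 2, where the best rank was 722 of 32554 peaks.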
